A study of Sus scrofa with 48 samples.

Results

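The SMAD4 circRNA isoforms of seminal plasma extracellular vesicles (SPEVs) were described across 24 boars. The rule that picked them uses position and not level, and takes every circRNA on chromosome 1 of the pig genome Sscrofa11.1 that lies between the first base of SMAD4 exon 2 and the base after the coding sequence. This gave 9 of the 17379 circRNAs of the series, and the same 9 were the only circRNAs assigned to SMAD4 as host gene. Of these, 6 shared the first base of exon 2 as their start, and 3 started further downstream.

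The vesicles came from Yorkshire boars aged 14 to 36 months, 12 with high sperm motility (H group) and 12 with low sperm motility (L group). The series text gives mean total motilities of 0.94 and 0.40 and states that 60 mL of seminal plasma was used per boar, whereas the paper names Large White boars and a smaller volume. The labels name no treatment, each long RNA library was made from 1 boar, and vesicles of seminal plasma come from several tissues, so that a library has no single cell type. The deposited values are raw counts of back-splice junction reads, which span the join between a downstream exon end and an upstream exon start and so count circRNAs apart from linear RNA. The libraries held 128644 to 610615 junction reads on 956 to 5716 circRNAs, and levels are given as RPM, the junction reads of a circRNA per 1000000 circRNA junction reads of its library. A count of 0 allowed a level of up to 4.91 to 20.1 RPM in H libraries and 5.06 to 23.3 RPM in L libraries (3 reads per library, counting error only). Because RPM is relative, more SMAD4 circRNA and less of all other circRNAs cannot be told apart. Of host genes that mark other sources, 4 of 8 epithelial genes had circRNAs, with summed levels of 0 to 5274 RPM (median 1619) for H boars and 488 to 2793 RPM (median 1805) for L boars. In the spermatid and sperm list 5 of 14 genes had circRNAs (medians of 166 and 214 RPM, highest sums of 496 and 584 RPM). In the leukocyte list 4 of 8 had them (medians of 0 and 0 RPM, highest sums of 294 and 352 RPM). The genes with circRNAs were EPCAM, CDH1, ESRP1 and GRHL2 (epithelial), CABYR, SPATA6, SPAG16, DNAH8 and ACRBP (spermatid and sperm), and LCP1, IKZF1, CD44 and PTPN22 (leukocyte). Those without included PRM1, TNP1 and AKAP4 of late spermatids, PTPRC of leukocytes, and the keratin genes KRT8 and KRT18. A gene without a circRNA can still have linear RNA, which these counts do not show. The part of these sources in the SMAD4 values was not tested.

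SMAD4 is the common partner of the receptor-activated SMAD proteins. Ligands of the TGF-beta and BMP families bind pairs of receptor kinases, the receptors phosphorylate SMAD proteins, and these enter the nucleus together with SMAD4 to change the transcription of target genes. The pathway acts in the testis and in the male reproductive tract. A circRNA is made when a downstream splice donor is joined to an upstream splice acceptor, so its exons carry no cap and no poly(A) tail, and it is often stable.

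The pig gene lies on the plus strand (chr1:100521843-100633501), and its model used here has 12 exons with a coding sequence of 1659 bases that begins in exon 2 and ends in exon 12. Exon 2 holds 249 coding bases, and the bases before them belong to the 5′UTR. Exons 2 to 11 were the same in all 5 annotated transcripts. The junctions are shown because they are the only sequence that tells the 9 isoforms from the linear mRNA. Each line gives the 15 bases up to the end of the isoform in lower case (the last of its downstream exon, or bases inside exon 12 for both exon 2 to 12 isoforms), followed by the first 15 bases of the upstream exon in capitals, as read from the plus strand of Sscrofa11.1, after the genomic span of the isoform.
Exons 2 to 5 (7823 bases): ctgtggcttccacaaGTTATCCTGAATACC
Exons 2 to 8 (13389 bases): tttctaatcatcctgGTTATCCTGAATACC
Exons 2 to 10 (23325 bases): agtgcatatataaagGTTATCCTGAATACC
Exons 2 to 11 (35144 bases): tagccccagctatcaGTTATCCTGAATACC
Exons 2 to 12, shorter (36819 bases): cagctcctagatgaaGTTATCCTGAATACC
Exons 2 to 12, longer (36865 bases): agcctttagactgagGTTATCCTGAATACC
Exons 5 to 8 (5779 bases): tttctaatcatcctgCTCCATCAGGTATGT
Exons 6 to 8 (1816 bases): tttctaatcatcctgGTCAGCCTGCCAGTA
Exons 9 to 10 (1346 bases): agtgcatatataaagCTCCTGAGTATTGGT

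The sites that were joined are shown with the genome bases next to them, because 2 of the 6 ends are not annotated exon edges. Each window holds 20 bases with the site in its middle, and capitals mark the AG before a start or the GT after an end.
Start of exon 2 (chr1:100589840-100589859): ttttttttAGgttatcctga
Start of exon 5 (chr1:100597450-100597469): tccgttatAGctccatcagg
Start of exon 6 (chr1:100601413-100601432): gttcctctAGgtcagcctgc
Start of exon 9 (chr1:100611819-100611838): tctcctatAGctcctgagta
End of exon 5 (chr1:100597663-100597682): gcttccacaaGTgagttgta
End of exon 8 (chr1:100603229-100603248): aatcatcctgGTaagtacat
End of exon 10 (chr1:100613165-100613184): atatataaagGTtagttgca
End of exon 11 (chr1:100624984-100625003): ccagctatcaGTaagtatgc
Shorter end inside exon 12 (chr1:100626659-100626678): cctagatgaaGTacttcata
Longer end inside exon 12 (chr1:100626705-100626724): ttagactgagGTcttttaac

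All 4 starts were preceded by AG and all 6 ends were followed by GT in the genome. The callers use these splice signals, so this is no evidence that the 2 ends inside exon 12 are splice donors. Both edges lay on annotated exon edges in 7 isoforms. The other 2 started at exon 2 and ended inside the last exon, 45 bases before the end of the coding sequence and 1 base after it. The longer one therefore spanned the whole coding sequence. Exons 5 to 8 and exons 6 to 8 ended at the same donor as exons 2 to 8, and exons 9 to 10 at the same donor as exons 2 to 10. If all internal exons are kept, the isoforms from exon 2 were 796 to 1789 bases long and the other 3 were 288 to 501 bases long. The isoforms from exon 2 all held the start codon, with 40.2% of the coding bases in exons 2 to 5, 57.6% in exons 2 to 8 and 78.8% in exons 2 to 10. Junction reads do not show which internal exons were kept. The bases on both sides of the 2 joined sites were the same over 1 to 6 positions, the most (aggtta) in exons 2 to 10 and 4 in the longer exon 2 to 12 isoform, so that the reads fix the joined sequence and the callers' use of splice signals fixes the exact position.

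**Figure D1:**
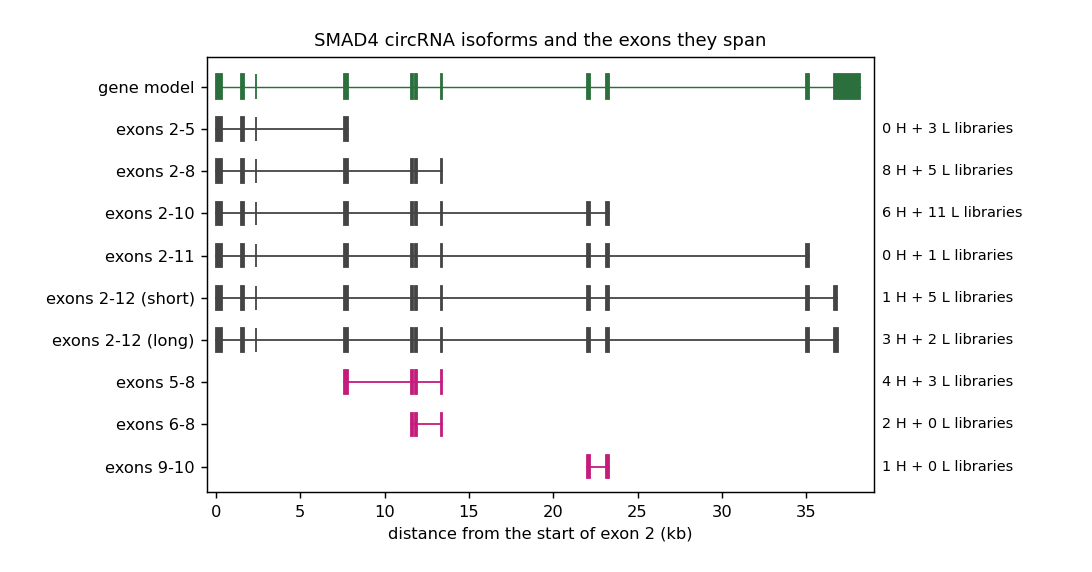
The 9 isoforms are drawn below exons 2 to 12 of the gene model by distance from the start of exon 2 in kb, with boxes for the exons they span, dark for the exon 2 start and pink for later starts. The exon 2 to 10 isoform was seen in the most libraries (6 H and 11 L), and the isoforms from later starts span at most 5779 bases.

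SMAD4 junction reads were found in all 24 libraries, which held for 105 of the 5179 host genes (2.03%). The sum over the 9 isoforms was 27 to 1516 reads per library and 9111 reads in all. By mean summed level (1063 ± 738 RPM, SD, n = 24), SMAD4 ranked 183 among the 5179 host genes, and 92.8% of host genes had fewer circRNAs. UBAP2, which encodes a ubiquitin-associated protein, ranked 4 with 24 circRNAs and 8648 RPM, and CREBBP, which encodes a histone acetyltransferase, ranked 316 with 10 circRNAs and 703 RPM. No single SMAD4 isoform was present in every library. One isoform alone carried the SMAD4 reads in 11 libraries, and the largest isoform of a library held 40.1% to 100% of its SMAD4 reads (median 81.3%).

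The isoform of exons 2 to 10 carried 4762 reads, or 52.3% of all SMAD4 reads, and ranked 243 of 17379 circRNAs by mean level. It had 43 to 653 reads in the 17 libraries with any (median 255 reads). Its level was 585 ± 474 RPM (SD, n = 24), with 0 reads in 6 H libraries and in L4. Exons 2 to 8 followed with 1971 reads in 13 libraries and 233 ± 280 RPM (SD, n = 24), from 27 reads in H5 to 277 reads in H11. These 2 isoforms were found together in 9 libraries, and 3 libraries (H3, H8 and L4) had neither.

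The other 7 isoforms were in few libraries each. Exons 5 to 8 had 986 reads in 7 libraries and 94.4 ± 168 RPM (SD, n = 24). The shorter exon 2 to 12 isoform had 497 reads in 6 libraries (64.0 ± 190 RPM, SD, n = 24), of which 208 were in H8, where it was the only SMAD4 isoform, and 200 in L6. Its other 4 libraries had 7 to 35 reads. The longer exon 2 to 12 isoform had 424 reads in 5 libraries (48.6 ± 114 RPM, SD, n = 24), namely 44 in H9, 26 in H10, 198 in H11, 89 in L6 and 67 in L12. Both last-exon isoforms were present in L6 and L12, and 1 or both of them in 9 libraries, 4 H and 5 L. Exons 6 to 8 had 121 reads in each of H3 and H11, and exons 2 to 5 had 31 reads in L4, 29 in L8 and 66 in L12. Exons 9 to 10 were found only in H3 (61 reads) and exons 2 to 11 only in L12 (42 reads).

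In this order of levels, no 2 neighbours differed by more than the SD of the higher one over the 24 libraries. Only the exon 2 to 10 isoform had a mean level above its own SD. Where an isoform was present it was rarely near the detection limit: the lowest level was 11.8 RPM, for the shorter exon 2 to 12 isoform in L12 (7 reads), and the median count over the 55 combinations of isoform and library with reads was 143 reads.

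**Figure D2:**
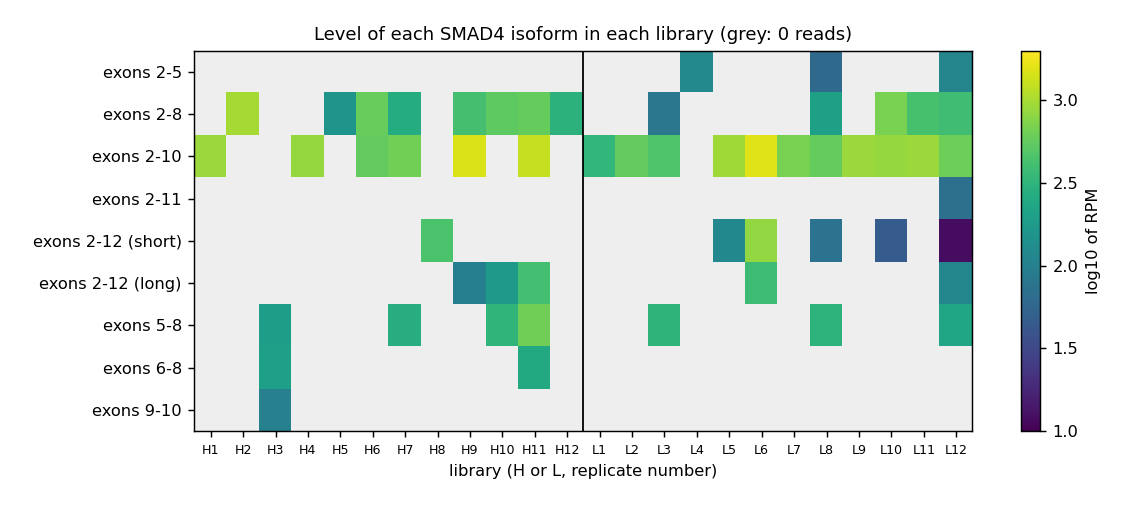
Each row is an isoform and each column a library, H to the left of the line and L to the right, with log10 of RPM as colour and grey for 0 reads. The exon 2 to 10 row is filled in 11 of the 12 L columns and 6 of the 12 H columns, and the L12 column holds 7 of the 9 isoforms.

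Isoforms that start at exon 2 were compared with those from later starts within libraries. This comparison was chosen with earlier results of these data known, so its p values are not those of an independent test. The exon 2 start carried 7822 of the 9111 reads (85.9%), the start of exon 5 carried 986 (10.8%), that of exon 6 carried 242 (2.66%) and that of exon 9 carried 61 (0.67%). The summed level from exon 2 was 946 ± 672 RPM (SD, n = 24), with 0 to 2744 RPM and a median of 894 RPM per library. From the later starts it was 117 ± 220 RPM (SD, n = 24), with 0 to 881 RPM and a median of 0 RPM. The exon 2 sum was higher in 23 of 24 libraries, by 828 ± 674 RPM on average (SD of the differences, n = 24) (two-sided permutation test of signs within libraries, 100000 resamples, p = 2e-05, the smallest they can give). Calculated per isoform, because the classes hold 6 and 3 isoforms, the means were 158 and 39.1 RPM (two-sided permutation test, p = 0.0001). The exon 2 mean rested on its 2 most abundant isoforms, with mean levels of 585 and 233 RPM. Its remaining isoforms had 64.0, 48.6, 12.3 and 2.95 RPM, each below the isoform from exon 5 (94.4 RPM). The isoforms from exons 6 and 9 had 18.6 and 4.16 RPM. An isoform from exon 2 was thus not higher in every case.

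The classes differed in both groups taken alone, by 720 RPM in the H group (12 libraries, two-sided exact permutation test, p = 0.00342) and by 937 RPM in the L group (12 libraries, two-sided exact permutation test, p = 0.000488). In 17 libraries, 8 H and 9 L, every SMAD4 read came from the exon 2 start. The reverse was seen in 1 library: H3, which had the most junction reads of all, held 300 SMAD4 reads, with 118 in exons 5 to 8, 121 in exons 6 to 8 and 61 in exons 9 to 10. Its 0 of 300 reads from exon 2 allowed a share of up to 1.22% (95% Clopper-Pearson interval). In the other 6 libraries with both classes the exon 2 share was 63.6% (L3, interval 59.0% to 67.9%) to 85.4% (L12, interval 82.9% to 87.6%). These intervals cover counting error only.

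The donor of exon 8 allowed the starts to be compared at a shared end. It was joined to exon 2 in 1971 reads, to exon 5 in 986 reads and to exon 6 in 242 reads. Exons 2 and 5 were both used in 6 libraries. There the reads for exon 2 and exon 5 were 61 and 63 in H7, 80 and 48 in H10, 277 and 309 in H11. Among L libraries they were 45 and 172 in L3, 95 and 143 in L8, 231 and 133 in L12. Exon 5 thus had the higher count in H7, H11, L3 and L8, and in H3, where exon 2 was not joined to this donor at all. H11 used all 3 starts. At the donor of exon 10, exon 2 had 4762 reads and exon 9 had 61 reads.

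**Figure D3:**
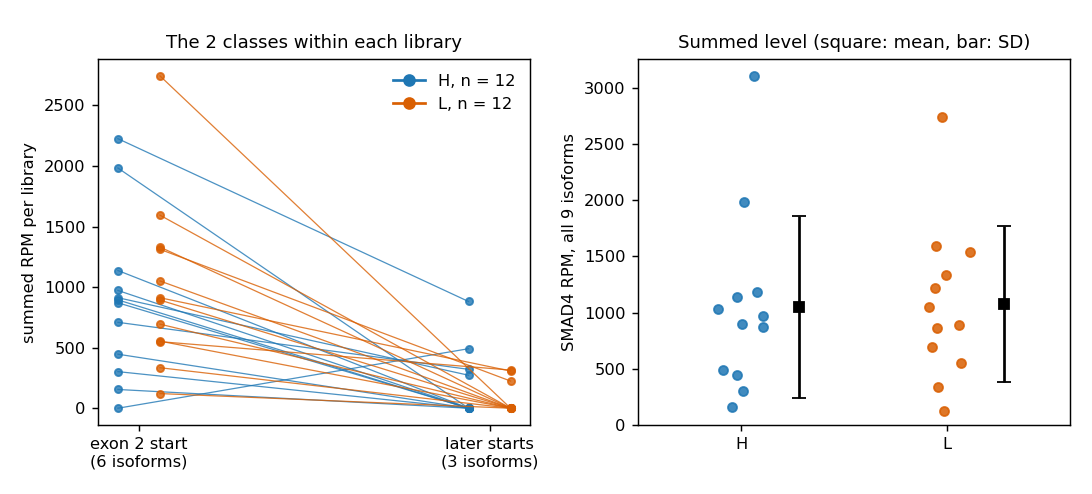
Left, lines join the summed RPM of the exon 2 start and of the later starts in each of 24 libraries (blue H, orange L), and 23 of the 24 lines run downward. Right, each point is the summed RPM of all 9 isoforms in a library, with squares for means and bars for SD, and the points of the 2 groups overlap over nearly their whole range.

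The prominence of the exon 2 start was set beside other host genes. Among 1002 host genes with at least 5 exonic circRNAs and at least 2 starts, the most upstream start carried a median of 17.9% of the junction reads (quartiles 5.11% and 50.6%). With 85.9%, SMAD4 was above 93.5% of them. UBAP2 had 26.1% and CREBBP 16.7%, although in both genes the most upstream start was also the acceptor of a second exon. The most used start, wherever it lay, carried 61.7% of the reads in UBAP2 and 50.7% in CREBBP, against 85.9% in SMAD4. A second-exon acceptor was the most upstream start in 625 of the 1002 genes (62.4%), with a median share of 21.8%, and it carried the most reads in 238 of these (38.1%). Of all 15491 exonic circRNAs, 3937 (25.4%) started at a second exon, and 473 (3.05%) ended inside a last exon after starting at an exon edge. At least 2 isoforms of the latter kind, as in SMAD4, were found in 33 of the 1002 host genes (3.29%), and UBAP2 and CREBBP had 0.

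**Figure D4:**
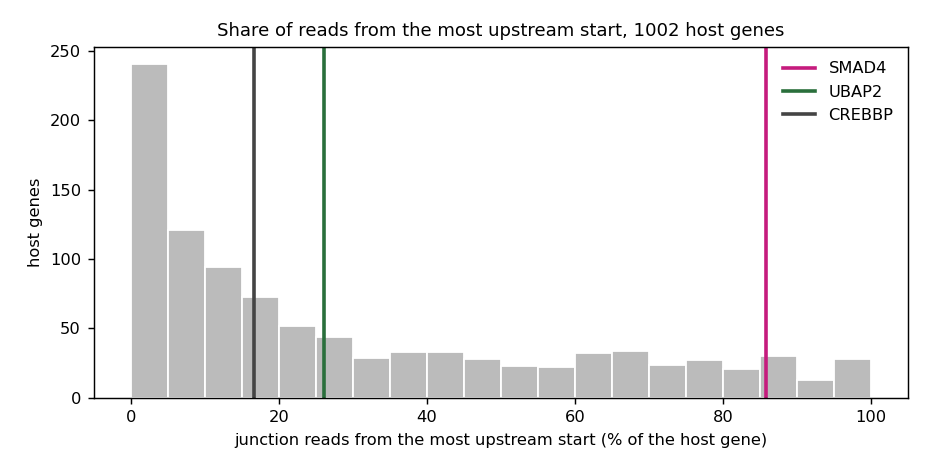
The histogram counts 1002 host genes by the percent of their junction reads that came from their most upstream start, in steps of 5%. SMAD4 (85.9%) lies in the sparse right part, and UBAP2 (26.1%) and CREBBP (16.7%) lie nearer to the median of 17.9%.

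Inverted repeats in the introns on both sides of the joined exons were described from the genome, because pairing of such sequences is known to favour back-splicing. Exons 2 to 11 allow 55 pairs of a start and an end, of which the file held 7. A reverse complementary match between the flanking introns was found for 6 of these 7 pairs and for 15 of the other 48 (blastn, E value of at most 1e-05). The best match was that of exons 5 to 8, with 262 bases at 96.9% identity, followed by exons 2 to 8, with 276 bases at 90.9%. Exons 2 to 10 ranked 5 with 280 bases at 87.9%. The pairs ranked 3, 4 and 6 (exons 5 to 10, exon 5 alone and exons 2 to 4) had no reads, and exons 2 to 11 had reads without a match. Pairs with the same start share an upstream intron, and of the 10 pairs that start at exon 2, 6 had a match. Of these, exons 2 to 5, 2 to 8 and 2 to 10 had reads. Exon 2 alone, exons 2 to 3 and exons 2 to 4 had none. The flanking introns of the pairs found were also longer, with a median summed length of 18697 bases against 6259.5 bases in the others, and the part of intron length was not tested.

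Whether SMAD4 circRNAs differed between boars of low and high motility was asked of the sum first. The summed level ranged from 155 to 3107 RPM among H boars (median 933) and from 121 to 2744 RPM among L boars (median 972), and the groups overlapped. The means were 1048 ± 811 (SD, n = 12) and 1078 ± 694 RPM (SD, n = 12), so that the difference of 30.1 RPM lay well within the SD of either group (two-sided permutation test, p = 0.925). With CPM scaled by TMM factors the difference was 163 CPM (means of 1070 and 1233 CPM, two-sided permutation test, p = 0.692). Leaving out single libraries moved the RPM difference from -121 RPM (without L6) to 217 RPM (without H11). The share from exon 2 was 84.8 ± 29.4% for H and 93.6 ± 12.4% for L (SD, n = 12 each, two-sided permutation test, p = 0.416). Without H3 the difference of 8.86 percentage points was 1.15 points.

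The number of isoforms per library was 1 to 5 for H (2.08 ± 1.31, SD, n = 12) and 1 to 7 for L (2.50 ± 1.88, SD, n = 12, two-sided permutation test, p = 0.628). After adjustment over these 3 comparisons by the Benjamini-Hochberg method all 3 permutation p values were 0.925. The number of isoforms was higher in libraries with more circRNAs of any gene (r = 0.75 and rho = 0.60 over 24 libraries, a description). The 4 libraries with the most circRNAs, L12, L8, L11 and L3, held 7, 5, 2 and 3 isoforms. Without them the L mean was 1.63, and the difference from the H group turned from 0.417 to -0.458 isoforms (two-sided permutation test, p = 0.536).

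The 2 most abundant isoforms were then compared between the groups. Exons 2 to 10 had reads in 6 H libraries and 11 L libraries, with medians of 278 and 655 RPM and highest levels of 1463 and 1529 RPM. The number of libraries with reads did not pass the two-sided Fisher's exact test (p = 0.0686). Exons 2 to 8 had reads in 8 H libraries and 5 L libraries, with medians of 283 and 0 RPM and highest levels of 972 and 689 RPM (two-sided Fisher's exact test, p = 0.414). As a pattern noticed after the values were seen and therefore not tested, 4 H libraries and no L library had exons 2 to 8 without exons 2 to 10, and 2 H and 6 L libraries the opposite.

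None of the 9 isoforms had an unadjusted p under 0.05 for detection (lowest 0.0686), a limit that 0.765% of the 17379 circRNAs passed. The shorter exon 2 to 12 isoform had reads in 1 H and 5 L libraries (two-sided Fisher's exact test, p = 0.155) and exons 2 to 5 in 0 H and 3 L libraries (two-sided Fisher's exact test, p = 0.217, the smallest that 3 libraries allow). With 1 or 2 libraries, as for exons 2 to 11, 6 to 8 and 9 to 10, this test cannot reach 0.05.

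In the fit over all circRNAs, 4 of the 9 isoforms had reads in at least 6 libraries and were tested. None of them was called. A call is an unadjusted P under 0.05 together with a fold change of 1.5 or more or of 0.67 or less. Among the 2793 circRNAs tested 1.68% were called, a share too low for no call among 4 to set these isoforms apart. On the log2 scale, L over H, edgeR's quasi-likelihood test gave 0.73 ± 1.05 (SE, p = 0.483) for exons 2 to 10 and -0.72 ± 1.57 (SE, p = 0.649) for exons 2 to 8. The values were 1.37 ± 1.90 (SE, p = 0.473) for the shorter exon 2 to 12 isoform and -0.43 ± 1.85 (SE, p = 0.817) for exons 5 to 8. All 4 had Benjamini-Hochberg adjusted P values of 1.00 in edgeR's quasi-likelihood test. Each of these 4 changes was smaller than its SE, and the median over all circRNAs tested was 0.27 on the same scale. Leaving out H11 turned the exon 5 to 8 value to 0.47. Without the 4 libraries with the most circRNAs the exon 2 to 8 value was -1.82 ± 2.04 (SE), and DESeq2 gave 4.91 ± 2.95 (SE, p = 0.0963) for the shorter exon 2 to 12 isoform, neither of which was a call. The summed SMAD4 reads changed by 0.14 ± 0.67 (SE, p = 0.838 in edgeR's quasi-likelihood test, adjusted P = 1.00), against 1.16% of 2164 host genes called.

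Without the filter, edgeR called 4 further isoforms, exons 2 to 5 and 2 to 11 as higher and exons 6 to 8 and 9 to 10 as lower in the L group. Each had reads in 1 group only and in at most 3 libraries, and that fit called 60.5% of all 17379 circRNAs, 38.0% as higher and 22.5% as lower in the L group. Fitted changes against a group at 0 reads depend on the prior count and are not given.

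The other genes of the TGF-beta and BMP pathway were taken from a list of 68 genes by role, and 29 of them were host genes, of 161 circRNAs in all. By mean summed level SMAD4 ranked 2 among them and itself, behind XPO4, a nuclear export receptor (2235 RPM), and before BMPR1B, a type I BMP receptor (1023 RPM). Junction reads count 1 position per circRNA, so these levels need no division by length. TGFB2, a TGF-beta ligand, was the only 1 of 14 ligands with circRNAs (5 circRNAs, 757 RPM). The ubiquitin ligase TRIM33 had 751 RPM, the coactivators CREBBP and EP300 had 703 and 673 RPM, and the type II receptor BMPR2 had 699 RPM.

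Within the SMAD family, 3 of 7 other members had circRNAs. SMAD5, which is activated by BMP receptors, was found in 20 libraries with mean levels of 478 RPM for H and 632 RPM for L. SMAD1, of the same branch, was found in 15 libraries (284 and 484 RPM). SMAD2, which is activated by TGF-beta and activin receptors, was found in 1 H library (H1) and 6 L libraries, with means of 83.2 ± 288 RPM for H and 121 ± 188 RPM for L (SD, n = 12 each), so that the H mean is that of H1 alone. SMAD3, the inhibitory SMAD6 and SMAD7, and SMAD9 had none. Of the receptors, 6 of 14 had circRNAs, and BMPR1B was found in the most libraries (23), followed by BMPR2 (18), ACVR2A (12), ACVR1 (10), BMPR1A (9) and TGFBR3 (7).

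None of the 23 list genes with reads in at least 6 libraries was called between the groups, against 1.16% of all host genes tested, a share too low for 0 of 23 to set the list apart. None had an unadjusted p under 0.05 in edgeR's quasi-likelihood test (lowest 0.285, for EP300) or was called by DESeq2. In 2 other fits some of the 23 were called. SMAD2 was called as higher in L boars without H1 (adjusted P = 0.0371 in edgeR's quasi-likelihood test), where all H libraries are at 0 reads and the fitted 8.33 depends on the prior count. With the replicate number as a block SMAD2 and ACVR2A were called, against 4.11% of all host genes in that fit, of which 0 had an adjusted P under 0.05. Without the filter 1 of the 29 host genes of the list was called (SP1, with reads in 1 H library and so not among the 23), against 36.1% of all host genes. Their log2 fold changes were positive in 15 and had a median of 0.26, against 0.17 over all host genes tested. The 3 SMAD genes had values of 0.45 ± 1.04 (SMAD5), 0.80 ± 1.24 (SMAD1) and 0.93 ± 1.89 (SMAD2), each with its SE, and the 6 receptors lay between 0.04 and 0.87. The value of BMPR1A, 0.04 ± 1.80 (SE), was negative without TMM scaling, with TMMwsp and in DESeq2. It also turned negative when single libraries were left out, as did those of SMAD5 (-0.025 without L6), BMPR1B (-0.046 without L7), ACVR1 (lowest -0.076, without L2) and TGFBR3 (lowest -0.55, without L8), so that the signs counted here are not firm.

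**Figure D5:**
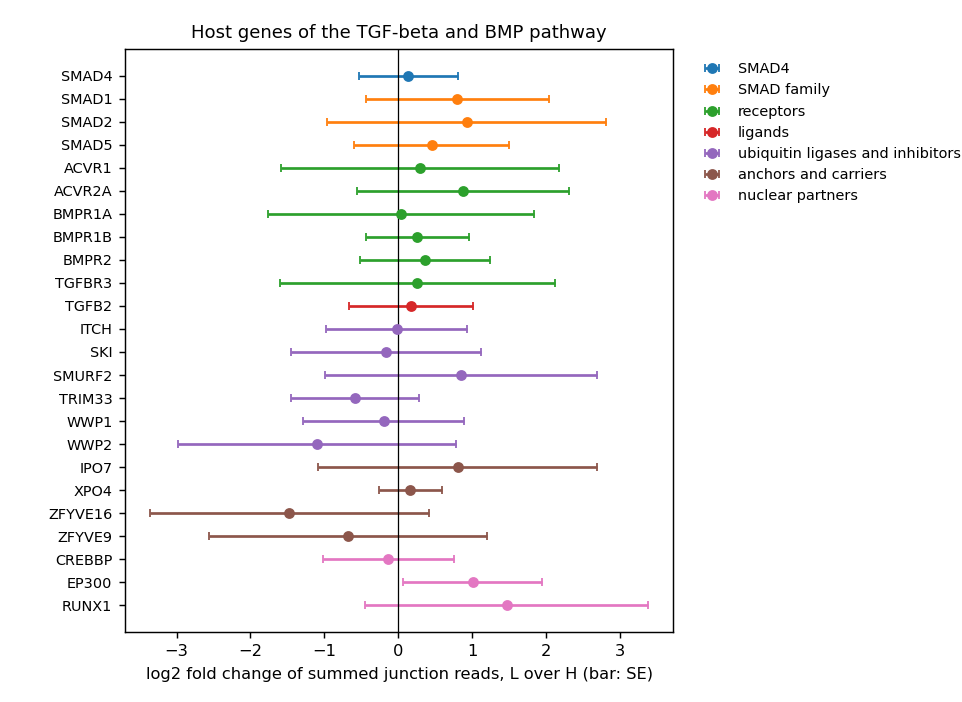
Points are log2 fold changes of summed junction reads, L over H, for SMAD4 and the 23 list genes tested, coloured by role, and bars are 1 SE to each side. Nearly all bars cross 0, and EP300, at a log2 fold change of 1.01 ± 0.94 (SE), is the exception.

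The host genes whose summed levels varied most like those of SMAD4 over the 24 libraries were taken from 1135 genes with reads in at least 12 libraries. They were GART (Spearman rho 0.74, Pearson r 0.28), DLG1 (0.69 and 0.70), FCHO2 (0.67 and 0.60), AGBL2 (0.67 and 0.60) and MAPKAP1 (0.58 and 0.48). The points share their libraries and depths, these are the highest of 1135 values whose median was 0.05, and no test was made. GART encodes an enzyme of purine synthesis, DLG1 a scaffold protein of cell junctions, FCHO2 a protein of clathrin-mediated endocytosis, AGBL2 a carboxypeptidase that acts on tubulin and MAPKAP1 a subunit of an mTOR complex.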

How the data were processed

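Long RNA libraries (SMARTer Stranded Total RNA-Seq Kit) of SPEVs from 12 H and 12 L boars were used, and groups and replicate numbers came from the labels. Per the paper's methods, the authors intersected the circRNAs of find_circ and CIRI2 and required 2 or more junction reads, and the deposited values are their raw junction counts on Sscrofa11.1 (susScr11). The smallest count above 0 was 2, 0 columns were without a library, and removal of PCR duplicates is not named, so that intervals and floors cover counting error only. The labels' processing notes also name cutadapt, FastQC and Bowtie. The small RNA libraries were not used here.

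Exons were taken from NCBI Annotation Release 106 and the genome sequence from the same build. Flanking introns were compared with blastn 2.17.0. Counts were fitted with edgeR 4.0.16 in R 4.3.3 (quasi-likelihood test, TMM, no covariate) over circRNAs or host genes with reads in at least 6 of 24 libraries. This filter is an addition to the paper's stated method. Calls used the paper's limits (unadjusted P under 0.05, fold change of 1.5 or more or of 0.67 or less), and Benjamini-Hochberg adjustment ran over every feature in the fit. Single values were compared by permutation tests with SciPy 1.17.1 (100000 resamples), and detection by Fisher's exact test. P values measure the spread between boars. No 2 libraries held the same counts. The main fits of circRNAs and of host genes were tested on simulated counts, and the alternative fits were not.

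The rule for the isoforms uses positions only, but SMAD4, that rule, the comparison of the exon 2 start with later starts, the gene lists and the tests were all chosen with earlier results of these data known. The named genes were every SMAD4 circRNA, list genes called or of the SMAD family and receptors with reads in at least 6 libraries, the 5 host genes with the highest Spearman correlation with SMAD4, and UBAP2 and CREBBP; the remaining list genes were named for their level after the values were seen. Alternatives were no filter, filterByExpr, no TMM, TMMwsp, DESeq2 1.42.0, an edgeR exact test, an adjusted limit, the replicate number as a block, other scales and minimum reads, and leaving out libraries.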

Additional observations from a re-analysis of the deposited data

How the results depend on the processing

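The direction and the side of the threshold of the exon 2 start against the later starts were the same under every alternative tried, namely log2(RPM + 1), means per isoform, TMM scaling, each group alone, without the 4 libraries with the most circRNAs (chosen after the values were seen) and without each library in turn (745 to 886 RPM). None of the 3 comparisons of the groups passed the threshold under any alternative. Their differences, L minus H, ranged without each library in turn from -121 to 217 RPM for the sum, from 1.15 to 11.6 percentage points for the share from exon 2 and from 0.00758 to 0.682 for the number of isoforms. Without the 4 libraries with the most circRNAs the sum turned to -49.7 RPM, the number of isoforms to -0.458 and the log2 fold change of the summed reads to -0.18. The cause was not tested.

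Of circRNAs, 47 were called (42 higher in the L group), against 10517 without the filter, 3 with filterByExpr, 73 by DESeq2, 27 by the edgeR exact test, 20 at an adjusted P value under 0.05 and 17 (5 higher in L) without the 4 libraries. Of host genes, 25 were called, against 1870, 3, 54, 20, 13 and 13 (3 higher in L) in the same order. Without each library in turn, 25 (without L11) to 54 circRNAs and 14 (without L12) to 29 host genes were called. The median log2 fold change of all circRNAs tested was 0.27 with TMM and 0.09 without it.

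No pairing of the boars by replicate number was visible. In 1 of 12 pairs the correlation of the deviations from the group means was over 0.1, and 2 of 12 H libraries correlated best with their own number. The highest Spearman correlation between any 2 libraries was 0.34, so that a weak pairing could be missed. With the replicate block 188 circRNAs and 89 host genes were called, and of the pathway list 2 genes, SMAD2 (5.18) and ACVR2A (5.97). No SMAD4 isoform was called, with exons 2 to 10 at 4.50 (p = 0.0863 in edgeR's quasi-likelihood test), exons 2 to 8 at -2.44 and the shorter exon 2 to 12 isoform at 2.13. With the block BMPR1B turned to -0.17 and ACVR1 to -0.33. Of the pathway list, 1 gene (SP1, with reads in 1 H library) was called without the filter and 0 to 1 without each library in turn (SMAD2, 8.33 without H1). BMPR1A turned to -0.32 without TMM, -0.12 with TMMwsp, -0.23 in DESeq2 and -1.24 without the 4 libraries, and ACVR1 to -0.027 without them. Without single libraries the lowest values were -0.076 (ACVR1), -0.31 (BMPR1A), -0.046 (BMPR1B), -0.025 (SMAD5), -0.55 (TGFBR3) and -0.018 (summed SMAD4), and the highest were 0.74, 0.49, 0.60, 0.69, 1.39 and 0.48 in the same order. CREBBP ranged from -0.26 to 0.27, and exons 5 to 8 from -0.84 to 0.47 (without H11).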
